A study of Mus musculus with 4 samples.

Results

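Dynein arm preassembly factors are cytoplasmic proteins that fold axonemal dynein and put its subunits together before it is carried into a motile cilium or a sperm flagellum. The set described here was chosen by name as 8 genes, Dyx1c1, Dnaaf1, Dnaaf2, Dnaaf3, Lrrc6, Heatr2, Zmynd10 and Spag1. Of these, 6 were found under those symbols (Dnaaf1 under its older symbol Lrrc50), among 22311 gene symbols in all. Dnaaf2 and Dnaaf3 were not listed under those symbols, but each was found under the name of a cDNA clone, 1110034A24Rik and 6030429G01Rik, and both are described beside the 6 and kept out of their counts. RNA was sequenced from whole testes of mice at postnatal day 24, from 2 samples of the Rfx2 mutant and 2 control samples. In the mutant (rfx2-/- in the labels) both alleles carry a neomycin-resistance cassette in place of the exons for the DNA-binding domain of RFX2, a winged-helix transcription factor of testis and ciliated cells. The line came from 1 targeted embryonic stem cell clone, and the allele is present in every cell of the animal. The controls are heterozygous in the study's methods and wild type in the labels. The strain is DBA in the labels, while the mice are elsewhere given a mixed 129/s6 and C57BL/6 background. If the controls were heterozygous, they carried 1 copy of the mutant allele themselves.

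The beating of cilia and of the sperm tail is driven by outer and inner dynein arms, large complexes of heavy, intermediate and light chains on the outer microtubule doublets. Their chains are synthesized in the cytoplasm and assembled there with the help of HSP90, HSP70 and the R2TP co-chaperone complex, together with dedicated preassembly factors. Loss of any of the 8 factors in humans leads to primary ciliary dyskinesia, in which dynein arms are missing, cilia do not beat properly and males are often infertile. In the testis these genes serve the flagellum that round spermatids start to build after meiosis.

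The confidence bounds in the files corresponded to 17.2 to 20.3 M fragments per sample, and the members rested on between 489 fragments (Dyx1c1 in mutant 2) and 27880 fragments (Dnaaf1 in control 1). Values are FPKM, fragments scaled to transcript length and sequencing depth, so levels can be compared between genes. Rfx2 itself was listed at an FPKM of 36.7 (mutant 1), 39.8 (mutant 2), 123 (control 1) and 89.4 (control 2), and these values cover the whole gene and not the replaced exons alone. Mutant 1 stood apart from the other 3 samples in genes of late spermatids. The summed FPKM of 12 elongating spermatid markers (protamines, transition proteins and flagellar genes among them) was 1593 for mutant 1, compared with 7234 for mutant 2, 8475 for control 1 and 5803 for control 2. Round spermatid markers summed to 743 for mutant 1, 1047 for mutant 2, 1053 for control 1 and 866 for control 2. Spermatocyte markers ranged from 1176 to 1341 and overlapped between the genotypes, and so did Sertoli cell markers, from 724 to 1067. Markers of multiciliated duct epithelium, another possible source of these transcripts, summed to 43.9 and 53.3 in mutant testes and 72.9 and 53.9 in control testes. Of the 7 markers found, Foxj1 had the highest level, at 19.6 and 27.3 in mutant testes and 46.2 and 25.4 in controls. The study treats Foxj1 as a cilia and flagella gene of the testis, so the sum need not come from duct epithelium. Epcam followed at 13.0 to 16.4 and Muc1 at 7.72 to 11.1, while Krt8 reached at most 2.44 and Krt18, Pax8 and Aqp1 were below 1 in all samples. The part of duct epithelium in the members' values was not tested. In these marker lists no gene was at 0 in all samples and none passed the test. In whole testis, fewer cells of a type and less RNA per cell cannot be told apart.

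In control testes the members spanned a wide range of levels, from Dnaaf1 at an FPKM of 317 ± 74.7 (SD, n = 2) and Zmynd10 at 198 ± 47.8 down to Dyx1c1 at 20.8 ± 0.996 and Heatr2 at 17.4 ± 1.32. Between these lay Lrrc6 at 46.7 ± 2.85, Dnaaf3 at 40.8 ± 8.82, Spag1 at 31.9 ± 4.40 and Dnaaf2 at 24.7 ± 2.17. Neighbours in this order did not overlap, except that the values of Dnaaf3 overlapped with those of Lrrc6 and of Spag1. In mutant testes Dnaaf1 at 234 ± 6.48 and Zmynd10 at 104 ± 4.78 again stood highest. They were followed by Dnaaf3 at 37.9 ± 10.5, Spag1 at 28.6 ± 5.85 and Lrrc6 at 28.2 ± 1.47, each overlapping the next, then by Dnaaf2 at 15.7 ± 0.547. The lowest pair changed places, with Heatr2 at 13.5 ± 1.41 above Dyx1c1 at 11.2 ± 0.632 in the mutant, and the 2 genes did not overlap in either genotype.

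**Figure D1:**
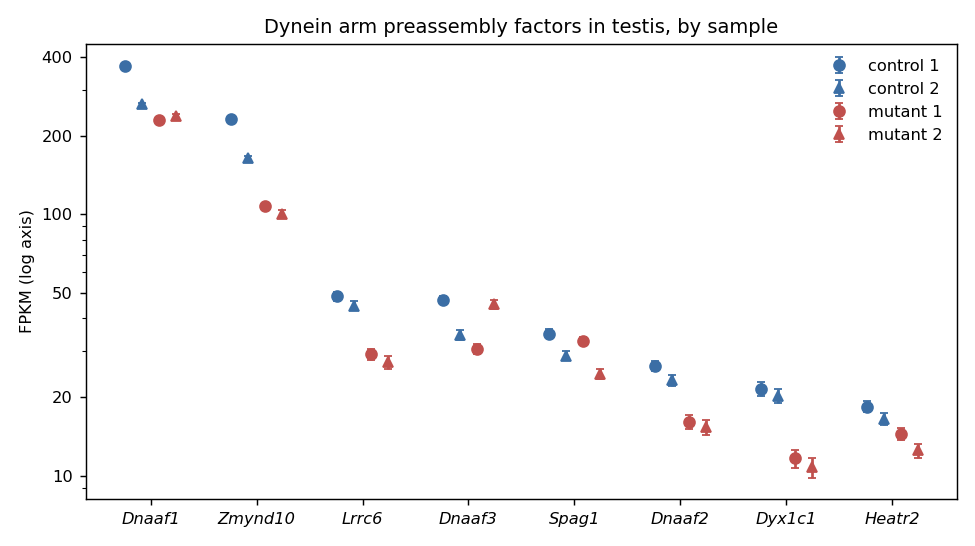
FPKM (log axis) of the 8 preassembly factors in each of the 4 samples, ordered by the mean of the control samples; bars are the confidence bounds given in the files and cover counting error. Mutant points lie below the control points for every gene but Dnaaf3 and Spag1, and the mutant mean is lowest relative to the control mean for Zmynd10 (52.7%) and Dyx1c1 (53.7%).

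Zmynd10, Dyx1c1 and Lrrc6 had the lowest mutant levels relative to control. Zmynd10, a MYND zinc finger protein that binds LRRC6, had an FPKM of 107 (mutant 1), 101 (mutant 2), 231 (control 1) and 164 (control 2). The mutant samples lay close together and both were well under the lower control, at 52.7% of the control mean. On the log2(FPKM + 1) scale its fold change was -0.90 (standard error 0.21, 95% interval -1.37 to -0.42), and it did not pass the threshold of 0.05 (adjusted p = 0.0772, limma over all tested genes with Benjamini-Hochberg adjustment). Dyx1c1, also named Dnaaf4, an HSP90 co-chaperone with tetratricopeptide repeats, reached 11.6 and 10.7 in mutant testes compared with 21.6 and 20.1 in controls. Replicates of each genotype were close and the genotypes did not overlap, with the mutant mean at 53.7% of the control mean. Its log2 fold change was -0.84 (standard error 0.18, 95% interval -1.25 to -0.43), which did not pass the threshold (adjusted p = 0.0523, limma). The study counts Dyx1c1 among the cilia genes under RFX2 control. It reports most of its cilia and flagella genes as significantly lower in the mutant, with real-time PCR. Lrrc6, a leucine-rich repeat protein and the binding partner of ZMYND10, was at 29.2 and 27.1 in mutant testes, controls being at 48.7 and 44.7. It stood at 60.4% of the control mean, again without overlap, and its log2 fold change of -0.71 (standard error 0.16, 95% interval -1.08 to -0.34) also missed the threshold (adjusted p = 0.0726, limma).

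Dnaaf2, known as Kintoun, a PIH-domain protein that works with HSP70 on the heavy chains, was listed under its clone name at 16.1 (mutant 1), 15.3 (mutant 2), 26.3 (control 1) and 23.2 (control 2). Both mutant samples were below both controls, at 63.4% of the control mean, and the log2 fold change was -0.62 (95% interval -1.02 to -0.23; adjusted p = 0.158, limma). Dnaaf1, a leucine-rich repeat protein needed for both kinds of arm, was at 229 and 238 in mutant testes, with controls at 370 and 264. The 2 controls differed from each other by more than control 2 differed from either mutant sample. Its log2 fold change of -0.42 had an interval from -0.92 to 0.083 that included 0 (adjusted p = 0.788, limma). It was -0.18 without control 1 and -0.66 without control 2. Heatr2, also named Dnaaf5, a protein of HEAT repeats, was at 14.5 and 12.5 in mutant testes, with controls at 18.4 and 16.5. These groups were separate but close, and the log2 fold change was -0.35 (95% interval -0.77 to 0.076; adjusted p = 0.807, limma).

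For the remaining pair the genotypes overlapped. Spag1, a tetratricopeptide repeat protein that binds GTP, was at 32.7 and 24.5 in mutant testes and at 35.0 and 28.8 in controls, with a log2 fold change of -0.16 (95% interval -0.62 to 0.30; adjusted p = 1.0, limma). Dnaaf3 had values of 30.5 (mutant 1), 45.3 (mutant 2), 47.1 (control 1) and 34.6 (control 2). Mutant 1 lay below both controls and mutant 2 between them, and the log2 fold change was -0.11 (95% interval -0.66 to 0.43; adjusted p = 1.0, limma). The intervals of both genes still include a drop of the size seen in Dnaaf1.

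Among the 6 members named by the rule, all of which passed the filter on low values (1 FPKM or more in 2 or more samples), 0 were lower and 0 were higher by limma with a threshold of 0.05 on the adjusted p. Of all 12985 tested genes, 2.52% were lower and 0.308% higher by this call. At an unadjusted p under 0.05, 3 of the 6 (Zmynd10, Dyx1c1 and Lrrc6) were lower, against 6.68% of all tested genes. The 2 mutant values were both under the 2 control values for 5 of the 6, against 15.2% of all tested genes. The median log2 fold change of the 6 was -0.56, beside 0.032 for all tested genes. With Dnaaf2 and Dnaaf3 under their clone names, 0 of 8 passed, 4 were lower at an unadjusted p under 0.05, 6 were separate and the median was -0.52.

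The members were also taken sample by sample. Relative to the control mean, the median member was at a log2 value of -0.55 in mutant 1 and -0.60 in mutant 2, and at 0.105 and -0.105 in the control samples. Single members departed from this, with Spag1 at 103% of the control mean in mutant 1 and Dnaaf3 at 111% in mutant 2. Over the same samples the elongating spermatid markers summed to 22.3% of the control mean in mutant 1 and to 101% in mutant 2. Single markers in mutant 2 departed from control in both directions. Prm1, for instance, had an FPKM of 1195 beside a control mean of 1529, and Smcp 705 beside 418. Without mutant 1 the log2 fold changes of Dyx1c1, Zmynd10 and Lrrc6 were -0.89, -0.94 and -0.76, and all 3 passed the threshold (adjusted p = 0.0100, 0.0194 and 0.0188, limma), where 3.33% of all tested genes were lower. Without mutant 2 the same 3 genes passed (adjusted p = 0.0243, 0.0291 and 0.0447, limma), where 7.30% of all tested genes were lower. Without control 2 only Zmynd10 passed, at -1.15 (adjusted p = 0.0437, limma; 1.64% of all tested genes lower), and without control 1 none of the 6 did (1.29% lower). Leaving out a sample leaves 1 in its group, which is then assumed to vary like the other group. Such a fit has 1 residual degree of freedom, so a gene that passes with fewer samples is no further evidence of a change. With a robust estimate of the spread, Dyx1c1, Zmynd10 and Lrrc6 passed with all 4 samples (adjusted p = 0.0115, 0.00790 and 0.0227, limma), where 3.29% of all tested genes were lower. With the samples blocked by replicate number, Zmynd10 and Lrrc6 passed, where 4.04% of all tested genes were lower. With the numbers crossed, none of the 6 did (adjusted p = 0.164 for Zmynd10 and 0.115 for Lrrc6, limma; 2.05% of all tested genes lower).

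**Figure D2:**
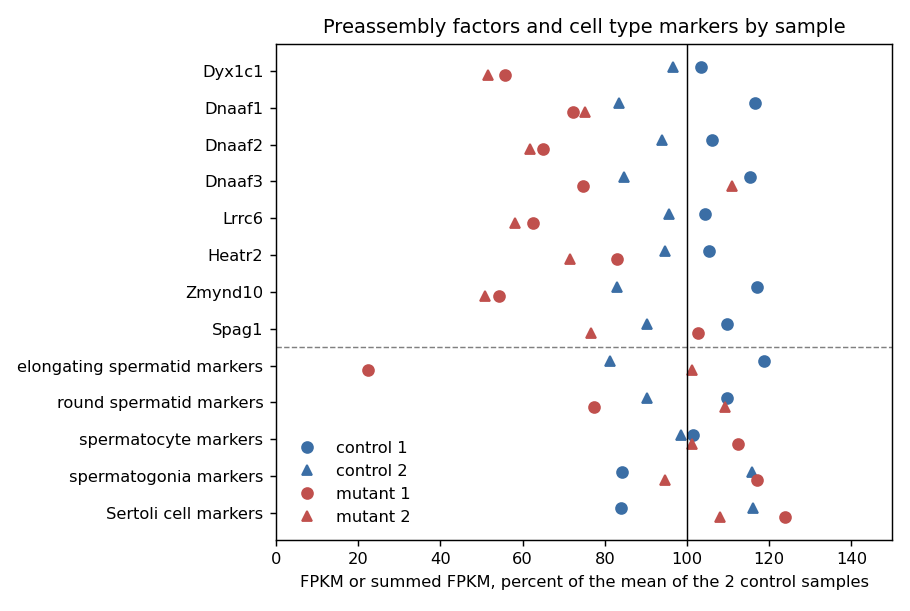
FPKM of the 8 preassembly factors (above the dashed line) and summed FPKM of 5 lists of cell type markers (below it) in each sample, as percent of the mean of the control samples, which is marked by the vertical line. Mutant 1 is at 22.3% for elongating spermatid markers and mutant 2 at 101%. For Dyx1c1, Zmynd10 and Lrrc6 both mutant samples lie between 50.9% and 62.6%.

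Ratios between members within a sample do not depend on how samples are scaled. Dyx1c1 over Heatr2 was 0.803 (mutant 1), 0.860 (mutant 2), 1.17 (control 1) and 1.22 (control 2). Zmynd10 over Spag1 was 3.28 and 4.11 in mutant testes, with controls at 6.61 and 5.70. Lrrc6 over Spag1 was 0.892 and 1.11 in mutant testes, with controls at 1.39 and 1.55. In each of these ratios the mutant samples lay below the controls without overlap. Zmynd10 over Dnaaf1, the pair with the highest levels, was likewise lower in the mutant, at 0.469 and 0.422 against 0.626 and 0.620. These ratios were chosen after their values were seen and are given without a test.

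A list of other genes of dynein preassembly, or of the docking and transport of the finished arms, was mixed in direction. It also holds Tbccd1, whose part in these steps was not established here. Of the 11 genes listed, all tested, 3 were lower and 0 were higher at the adjusted threshold. The list's median log2 fold change was -0.087. Wdr69 (Daw1), which helps outer arms reach the axoneme, fell by 1.81 on the log2 scale (adjusted p = 0.00510, limma). Its FPKM was 6.93 and 4.40 in mutant testes and 23.4 and 20.4 in controls. 9230110C19Rik (Cfap300), a partner of the preassembly machinery, was at 15.9 and 14.4 against 32.3 and 30.9, a log2 fold change of -1.02 (adjusted p = 0.0170, limma). Pih1d3, listed as 4930521A18Rik and a relative of Dnaaf2 with the same PIH domain, was at 2.90 and 2.43 against 7.91 and 7.24, a log2 fold change of -1.23 (adjusted p = 0.0225, limma). For these 3 genes the mutant samples were well below either control sample, without overlap. Without the filter on low values, all 3 missed the threshold (adjusted p = 0.0580, 0.0536 and 0.116, limma). Pih1d3 also missed it with the filter at an FPKM of 5 (adjusted p = 0.0532, limma). All 3 missed it when a control was left out, with adjusted p = 0.0936, 0.215 and 0.196 without control 1 and 0.0534, 0.149 and 0.124 without control 2 (limma), and kept log2 fold changes of -0.99 or lower.

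The other 8 genes of that list did not pass. Pih1d2, another PIH-domain gene, was at -0.73 on the log2 scale (adjusted p = 0.154, limma) and Ttc12, a factor for inner arms, at -0.58 (adjusted p = 0.182, limma), both with the mutant samples below the controls. Wdr92, which links to R2TP, and Tbccd1 were at -0.087 and -0.061, and Ccdc103 was at 0.25, with overlapping samples in all 3. On the other side stood Pih1d1, a subunit of R2TP, at 0.31 (0.49 without control 1 and 0.12 without control 2), 1110004E09Rik (Cfap298) at 0.51 (adjusted p = 0.410, limma), and Ccdc151, a docking protein of outer arms, at 0.60 (adjusted p = 0.189, limma). In these 3 both mutant samples were above both control samples, for instance Ccdc151 at 53.6 and 56.9 against 40.4 and 32.3.

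**Figure D3:**
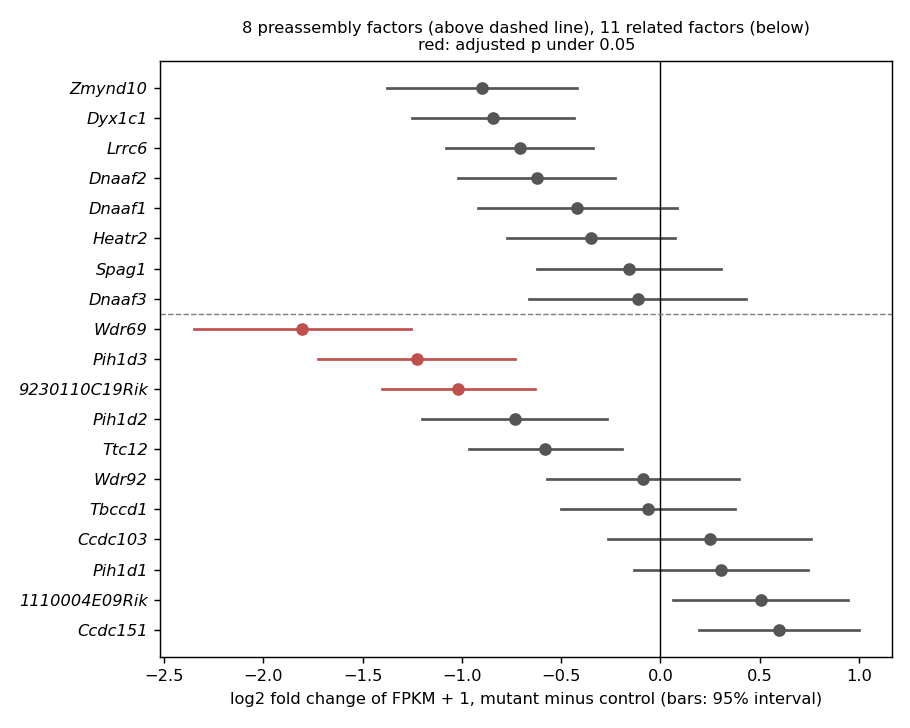
Fitted log2 fold change (mutant minus control, log2 of FPKM + 1) with its 95% interval for the 8 preassembly factors, above the dashed line, and 11 related factors, below it; red marks an adjusted p under 0.05. The intervals of Zmynd10, Dyx1c1, Lrrc6 and Dnaaf2 exclude 0 before adjustment, and the 3 red genes are Wdr69, Pih1d3 and 9230110C19Rik.

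The preassembly factors work with general chaperones. Of 16 genes of R2TP, HSP90, HSP70 and their co-chaperones, 1 was lower and 0 were higher at the adjusted threshold. In 3 of the 16 both mutant values were under both control values, and in 3 they were above. Of all 12985 tested genes, 1969 (15.2%) were under and 2122 above. The median log2 fold change of the 16 was -0.047. The gene that passed was Dnajb13, an HSP40 family protein of the radial spokes of the sperm tail and not a chaperone of dynein, at 29.3 and 49.6 in mutant testes and 177 and 150 in controls (log2 fold change -2.07, adjusted p = 0.00334, limma). Its adjusted p was 0.0617 without the filter, 0.0581 with median-ratio scaling and 0.0541 without control 1 (limma). Hspa1l, a testis HSP70, was at 18.4 (mutant 1), 73.0 (mutant 2), 76.5 (control 1) and 62.1 (control 2), so mutant 1 alone was low (log2 fold change -0.88, adjusted p = 0.918, limma).

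The axonemal dynein chains, the clients of the preassembly factors, held the steepest drops. Of 25 listed chains 19 were found and 16 tested, and of those 6 were lower and 0 were higher at the adjusted threshold, with a median log2 fold change of -0.40. Dnaic2, an intermediate chain of outer arms, was at 0.286 and 0.160 in mutant testes, with controls at 43.1 and 28.4 (log2 fold change -4.88). Dnahc10 and Dnahc6, heavy chains of inner arms, had log2 fold changes of -2.76 and -1.94. The light intermediate chain Dnali1 fell by 2.04, the light chain Dynlrb2 by 1.58 and the intermediate chain Wdr78 by 1.13. The adjusted p of these 6 ran from 4.3e-05 for Dnaic2 to 0.0110 for Wdr78 (limma), and without control 1 those of Dynlrb2 and Wdr78 were 0.0577 and 0.160. Without control 2 that of Wdr78 was 0.126, and without the filter that of Dnahc6 was 0.0501. Each drop was larger than any of the 8 preassembly factors showed in these samples. The 6 chains were picked for passing the threshold, which none of the 8 factors did, so this contrast follows largely from the choice. Taken whole, the 16 tested chains had a median of -0.40, a smaller drop than the -0.52 of the 8 factors. Neither comparison of fitted values was tested. Dnaic1, which pairs with Dnaic2 in the outer arm, was at 72.1 and 85.0 in mutant testes, with controls at 51.4 and 44.1 (log2 fold change 0.71, adjusted p = 0.0998, limma). Among 11 genes listed as subunits of cytoplasmic dynein, a motor of intracellular transport, 0 were called, with 0 at an unadjusted p under 0.05 and a median of 0.079. The largest values among them were 0.23 for Dynlrb1 and 0.21 for Dynlt1b. Each light chain was placed in a single list, for instance Dynlrb2 in the axonemal and Dynlrb1 in the cytoplasmic list. Whether a light chain serves both motors was not examined, so the lists may not be fully separate. The counts of 6 called axonemal chains and 0 called cytoplasmic subunits depend on the placement of Dynlrb2.

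**Figure D4:**
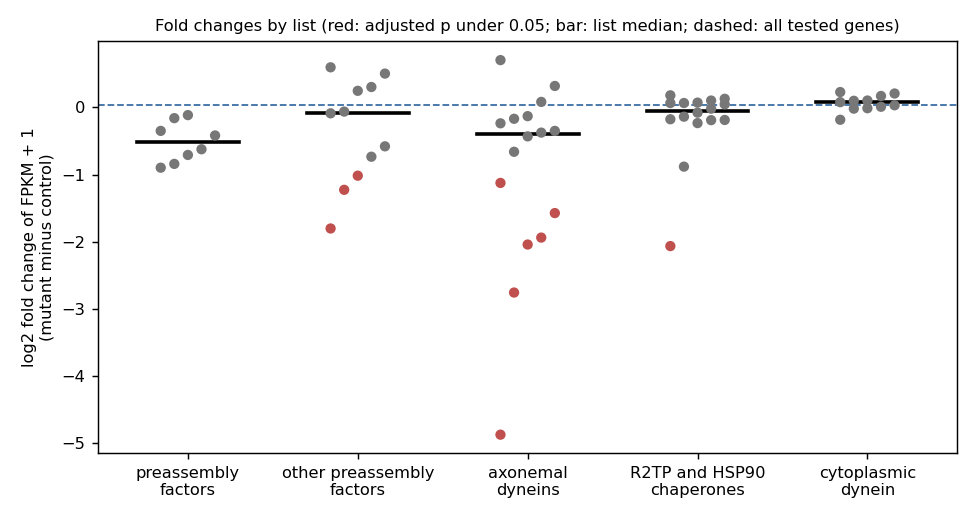
Fitted log2 fold changes (mutant minus control) of the tested genes of 5 lists, with 1 point per gene, red for an adjusted p under 0.05, a black bar for the list's median and a dashed line for the median of all tested genes at 0.032. The 8 preassembly factors lie between -0.90 and -0.11 around a median of -0.52, the axonemal dyneins reach down to -4.88, and the cytoplasmic dynein subunits lie around 0.079.

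RFX factors bind the X-box, an imperfect inverted repeat whose half-site is often written GGCAAC, so the start regions of the members are shown with those matches in capitals. Promoter sequences, from 250 bases before to 50 after the start, were taken from RefSeq (GRCm38.p6) for 5 of the 8 genes. Dnaaf1, Lrrc6 and Spag1 had no entry. Each of the 5 sequences matched NCBIM37 (mm9), the build of the files, in 1 place without a mismatch. The stretches below run 5′ to 3′ on the strand of the gene from 50 bases before the start to the base numbered 20, where the start is base 1 and the base before it -1.
Dyx1c1: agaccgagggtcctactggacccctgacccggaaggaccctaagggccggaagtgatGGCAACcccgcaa
Zmynd10: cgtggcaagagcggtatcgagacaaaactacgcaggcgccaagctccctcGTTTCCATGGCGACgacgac
Zmynd10, bases 31 to 50: caacggcttGGCAACtgccc
Dnaaf2: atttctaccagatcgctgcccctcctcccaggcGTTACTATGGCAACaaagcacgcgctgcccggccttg
Heatr2: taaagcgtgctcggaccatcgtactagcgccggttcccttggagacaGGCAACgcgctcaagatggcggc
Dnaaf3: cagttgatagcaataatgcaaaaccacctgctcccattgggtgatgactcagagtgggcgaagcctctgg

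In mm9 these stretches lie at chr9:72806542-72806611 (Dyx1c1, plus strand), chr9:107449585-107449654 and chr9:107449665-107449684 (Zmynd10, plus strand), chr12:70299397-70299466 (Dnaaf2, minus strand), chr5:139626139-139626208 (Heatr2, plus strand) and chr7:4484048-4484117 (Dnaaf3, minus strand). The start of the RefSeq gene Dnaaf2 fell on the annotated start of 1110034A24Rik, at a distance of 0 bases, which ties that clone name to Dnaaf2. RefSeq lists 6030429G01Rik as a synonym of Dnaaf3.

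The X-box consensus named by the study, with a gap of 0 to 3 bases and searched on both strands, was found without a mismatch in the start region of Dnaaf2 alone, at bases -17 to -4 on the opposite strand. Of all 32851 RefSeq promoters of this length, 1.53% held it. With 1 mismatch allowed, Zmynd10 also had a match, at bases 1 to 14, and 11.3% of all promoters had one. The half-site GGCAAC, searched on both strands and overlapping the X-box of Dnaaf2, stood in 4 of the 5, at -9 in Dnaaf2, -3 in Heatr2, 8 in Dyx1c1 and 40 in Zmynd10, each on the strand of the gene. Of all promoters 12.5% held it somewhere in the window, and 4.68% within 50 bases of the start. Other half-sites that fit the consensus were searched as well. AGCAAC stood in 2 of the 5 (14.8% of all promoters), GGTAAC in 1 (7.21%) and AGTAAC in 1 (8.21%). Dnaaf3 had none of these matches. Within 1000 bases on each side of the annotated start in mm9, again only Dnaaf2 of the 5 had an X-box without a mismatch, as did 4.60% of 12413 tested genes with an annotated start. A match is a description of the letters, and no binding was measured here.

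**Figure D5:**
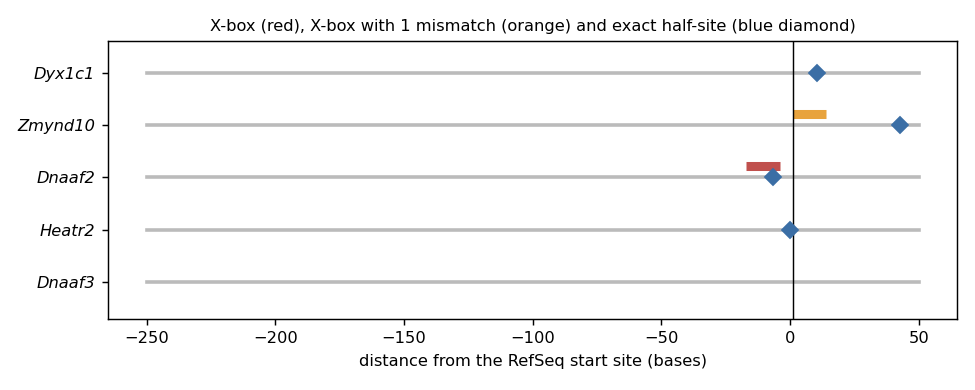
Matches in the start regions of the 5 genes with a RefSeq promoter, as distance in bases from the start site (vertical line); grey lines span the sequence searched, the red bar is an X-box without mismatch, the orange bar one with 1 mismatch and blue diamonds are GGCAAC half-sites. The matches shown for Dnaaf2, Heatr2, Dyx1c1 and Zmynd10 all lie within 50 bases of the start, and Dnaaf3 has none.

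In mm9, Dyx1c1 lies at chr9:72806592-72820871 and Zmynd10 at chr9:107449639-107453650, both on the plus strand. Lrrc6 lies at chr15:66211420-66332472 on the minus strand and Spag1 at chr15:36109123-36165365 on the plus strand. Dnaaf1 is at chr8:122099135-122122354 (plus), Heatr2 at chr5:139626177-139662464 (plus), Dnaaf2 at chr12:70286878-70299416 (minus) and Dnaaf3 at chr7:4474535-4484055 (minus), and all 8 are annotated as protein coding. Several share exonic bases with another gene, and whether the libraries kept strand is not given in the sources used here, so reads in those bases could be counted to either gene. A longer gene model of Dyx1c1 reads through into Ccpg1, downstream on the same strand. Ccpg1, an autophagy receptor of the endoplasmic reticulum, was at 19.3 and 24.7 in mutant testes, with controls at 32.5 and 35.1, also without overlap (log2 fold change -0.60, adjusted p = 0.217, limma). Tnni3, cardiac troponin I, overlaps Dnaaf3 on the same strand and was at 40.6 and 41.7 against 35.6 and 37.4. Taf1c, antisense to Dnaaf1, was at 3.59 to 5.0 in the 4 samples, a level far under that of Dnaaf1. The noncoding gene 9330151L19Rik, antisense to Dnaaf2, had higher mutant values, 5.75 and 5.59 beside 3.35 and 3.55 in controls (adjusted p = 0.357, limma). Mgat2, a protein-coding gene, is antisense to Dnaaf2 as well and shares exonic bases with it. It was at 18.3 and 15.8 in mutant testes and 14.7 and 17.7 in controls, a level near that of Dnaaf2, with overlapping genotypes. The part of these overlaps in the members' values was not tested.

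The tested genes with the profile closest to that of a member were taken by the Euclidean distance, over the 4 samples, between log2(FPKM + 1) values centred on their own mean. For Lrrc6 these were Poli, a translesion DNA polymerase, at a distance of 0.0105 and Ap3m2 at 0.0251. Those of Dyx1c1 were Meaf6, a subunit of histone acetyltransferase complexes, at 0.0234 and Plk1s1 at 0.0455. Those of Zmynd10 were 4931419H13Rik at 0.0427 and Polr2i, a subunit of RNA polymerase II, at 0.0497. Dnaaf2 was closest to Zfp438 at 0.0497 and Ttc30a2, a gene of intraflagellar transport, at 0.0536. For Dnaaf1 they were Bola1 at 0.0544 and 4930579F01Rik at 0.0569, and for Heatr2 Gm6583 at 0.0468 and Wdpcp, a planar polarity gene of cilia, at 0.0633. Spag1 was closest to Greb1 at 0.0239 and Snrpg at 0.0394, and Dnaaf3 to Tbc1d9 at 0.0351 and Gm5142 at 0.0560. None of these neighbours was another of the 8 factors, and with 4 samples many genes have a similar profile.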

How the data were processed

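Total RNA of whole testes was sequenced with Illumina chemistry. The study's methods and the submitters' processing notes name TopHat 2.0.6, with mm9 as the genome, and Cufflinks. What the authors deposited is 1 table per sample, with a gene's FPKM and its confidence bounds; replicates were not pooled in these files and no scaling between samples is stated. FPKM are normalized for gene length and depth within a sample. They are not counts, so no count model was used.

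Entries sharing a symbol were summed. Genes reaching 1 FPKM in 2 or more of the 4 samples were tested on log2(FPKM + 1), mutant minus control, with limma 3.58.1 (lmFit, eBayes with trend, R 4.3.3), two-sided, Benjamini-Hochberg adjusted over 12985 genes; the pseudocount of 1 understates changes of low genes. The fit was tested on simulated data. Fragment numbers were derived from the confidence bounds, taken as 2 square roots of the fragments on each side, and cover counting error only. Fragment numbers so derived are estimates. Tables and figures were made with python 3.11.15, pandas 2.3.3 and matplotlib 3.10.9.

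Groups came from the sample labels, which number samples 1 and 2 in each genotype without saying that a number pairs them; the study describes the replicates as independent biological samples. The genes named are all members, Rfx2 and all 11 genes listed as other preassembly factors. Of each other pathway list the called genes and the 2 largest changes are named, and of each member the 2 nearest profiles. Dnaic1 was named outside this rule. Epithelial markers and genes overlapping members, such as Ccpg1, Tnni3, Taf1c and 9330151L19Rik, were added by position or after their values were seen. Members, lists and tests were chosen with earlier results of these data known. Alternatives were a pseudocount of 0.1, no filter, a filter at an FPKM of 5, median-ratio scaling, quantile normalization, eBayes without trend and robust eBayes, the highest entry for a symbol, a replicate block, each replicate left out, and, chosen after seeing the data, a crossed replicate block. The study's Cuffdiff comparison, real-time PCR and ChIP-PCR were not analysed here.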

Additional observations from a re-analysis of the deposited data

How the results depend on the processing

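With 2 samples per genotype the test has little power for changes of the size seen in these genes, so a member that was not called was not shown to be unchanged. Of the 6 members named by the rule, 0 were lower with all samples, against 3 with robust eBayes, 2 with the replicate block, 0 with the crossed replicate block and 0 to 3 when 1 sample was left out. 0 were higher in every alternative run. Their median log2 fold change, -0.56, ran from -0.71 to -0.46 when 1 sample was left out, the low end being without control 2, and from -0.58 to -0.54 in the other alternatives. The number of genes lower among all tested, 327, was 199 without the filter, 202 with the filter at an FPKM of 5, 216 with median-ratio scaling, 525 with the replicate block and 167 to 948 when 1 sample was left out. The number higher, 40, was 17 without the filter, 17 with the filter at an FPKM of 5, 16 with median-ratio scaling, 67 with robust eBayes, 70 with the replicate block and 13 to 162 when 1 sample was left out. Across genes, samples with the same number deviated from their genotype's mean with a correlation of -0.154. With 2 samples per genotype, this value cannot show whether samples with the same number were handled together. The block leaves a single residual degree of freedom. The causes of these shifts were not tested.

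Leaving out 1 sample turned the direction of genes that were not called: Dnaaf3 ran from -0.39 to 0.16, Spag1 from -0.36 to 0.044, Hspa1l from -1.85 to 0.082, Wdr92 from -0.20 to 0.027, Ccdc103 from -0.032 to 0.53 and Dynlt1b from -0.094 to 0.51. Dyx1c1 stayed between -0.89 and -0.79, Lrrc6 between -0.77 and -0.63, and Zmynd10 between -1.15 and -0.65 over all 14 alternatives, with adjusted p from 0.0100 to 0.455, 0.0188 to 0.531 and 0.00553 to 0.356 (limma).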
